A study of Mus musculus with 6 samples.

Results

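The genes examined here are 10 genes of MHC class II antigen presentation, namely H2-Aa, H2-Ab1, H2-Ea-ps, H2-Eb1, Cd74, H2-DMa, H2-DMb1, H2-DMb2, H2-Ob and Ciita. They were chosen by name and found by Ensembl identifier, with symbols from GENCODE M21, among the 24965 genes of the deposited table. All 10 were measured, and all 10 were among the 13739 genes that had an FPKM (fragments per kilobase of exon, scaled to the depth of the library) above 1 in at least 1 library and were therefore tested. The libraries were made from RNA of donor hematopoietic stem and progenitor cells (HSPCs) recovered 6 h after bone marrow transplantation (BMT) into recipient mice, with 3 WT and 3 Hemgn-/- libraries. Hemgn encodes hemogen, a nuclear protein of hematopoietic cells. Donors of both groups were on the C57BL/6 (CD45.2) background, and Hemgn had been disrupted in the germline with zinc finger nucleases, so that the disruption was in every donor cell type. Mice were young adults of both sexes, with WT littermates as controls. Recipients of whole bone marrow were in both groups CD45.1+ mice irradiated with a split dose of 9 Gy (4.5 Gy each time). The difference between groups that the labels give is the genotype of the donor cells, and other differences between the groups were not tested. By the study's methods the sorted donor cells were LSK (lineage-negative, Sca-1+, c-Kit+), but the labels of the samples list a lineage-negative Sca-1+ sort and leave c-Kit out. Labels and methods also differ on the injection route and the library kit. Neither says whether a library came from 1 animal or from a pool.

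MHC class II molecules carry peptides from the endosomes of B cells, dendritic cells and macrophages to the cell surface, where CD4 T cells read them. The alpha and beta chains H2-Aa and H2-Ab1 form I-A, and an E alpha chain with H2-Eb1 forms I-E. New dimers are held by the invariant chain Cd74, whose last piece, CLIP, is exchanged for peptide by H2-DM (H2-DMa with H2-DMb1 or H2-DMb2), and H2-O (H2-Oa with H2-Ob) restrains H2-DM, mainly in B cells. Ciita is the coactivator on which transcription of these genes depends, and interferon-gamma is a known inducer of it. C57BL/6 mice are known to lack I-E at the surface because their E alpha gene is defective, and the annotation accordingly lists it as a polymorphic pseudogene, H2-Ea-ps.

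In the GRCm38 annotation, 8 of the 10 genes lie on chromosome 17, in the order H2-DMa (34119541 to 34139101), H2-DMb2 (34143307 to 34151555), H2-DMb1 (34153072 to 34160230), H2-Ob (34238903 to 34254414), H2-Ab1 (34257689 to 34269419), H2-Aa (34282744 to 34287823), H2-Eb1 (34305867 to 34316674) and H2-Ea-ps (34341959 to 34344645). H2-Aa and H2-Ea-ps are on the minus strand and the other 6 on the plus strand. Ciita lies on chromosome 16 (10480059 to 10528418, plus strand).

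Class II promoters are known for a conserved module, in which the X box is bound by the RFX complex and the Y box, an inverted CCAAT, by NF-Y, with Ciita recruited through both. RefSeq promoter sequences of GRCm38.p6, each 300 bases from 250 before the annotated start, were used for 6 of the 10 genes. These gave 7 entries because H2-DMa has more than 1. Cd74 was left out of this search, and no entry was used for H2-Ab1, H2-Ea-ps or Ciita. The counts of entries below therefore do not cover these genes. The stretches below are shown because 4 of them hold this spacing, in genes that rose (H2-Eb1 and H2-Ob), fell (H2-DMb1) or did not pass the test (H2-Aa), and the last, of H2-DMb2, is the counterpart of H2-DMb1. Capitals mark ATTGG, the core letters of the Y box, and GNAAC, letters found in the X box, where GNAAC starts 25 to 40 bases before ATTGG. The pair was chosen after the promoters had been read.
H2-Aa, chr17:34287857-34287916, minus strand: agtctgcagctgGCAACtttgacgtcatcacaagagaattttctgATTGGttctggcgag
H2-Eb1, chr17:34305763-34305822, plus strand: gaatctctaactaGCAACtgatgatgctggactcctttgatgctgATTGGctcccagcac
H2-Ob, chr17:34238803-34238862, plus strand: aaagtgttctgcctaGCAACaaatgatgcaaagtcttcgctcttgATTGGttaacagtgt
H2-DMb1, chr17:34153085-34153144, plus strand: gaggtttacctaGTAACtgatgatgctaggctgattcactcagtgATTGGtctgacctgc
H2-DMb2, chr17:34145114-34145173, plus strand: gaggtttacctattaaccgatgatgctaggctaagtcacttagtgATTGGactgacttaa

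The starts of GNAAC and ATTGG lay 33 bases apart in H2-Aa, 32 in H2-Eb1, 30 in H2-Ob and 33 in H2-DMb1. ATTGG began 48 bases before the annotated start in H2-Aa, 59 in H2-Eb1, 57 in H2-Ob, 61 in H2-DMb1 and 90 in H2-DMb2. In H2-DMb2 the letters ATTGG were present without the paired GNAAC at this spacing. Read on both strands, the pair was in 4 of the 7 entries and in 2.67% of 32851 promoters of the same length. CCAAT on either strand was in 6 of the 7 entries and in 37.4% of these promoters. Because the pair was chosen after the promoters had been read, its share among the 7 entries is no test of enrichment. These matches are a description of letters and not evidence of binding.

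Depth ranged from 23668015 to 28897360 fragments per library, as recovered from the steps of low FPKM values, and each of the 10 genes had between 1244 and 44022 fragments in every library. Hemgn itself was 5.64, 2.96 and 4.68 FPKM in the WT libraries and 0.755, 0.913 and 1.60 FPKM in the Hemgn-/- libraries, without overlap (log2 fold change -1.37, limma with Benjamini-Hochberg adjustment, adjusted p = 0.0114). The labelled cell type was checked against markers. The summed FPKM of 10 HSPC markers was 35.9 to 41.8 in WT and 43.2 to 51.7 in Hemgn-/- libraries, and Kit, the gene of c-Kit, was at 6.58 ± 0.581 and 5.68 ± 0.206 FPKM (mean ± SD, n = 3). In the same libraries 10 B cell markers summed to 1324 to 1390 FPKM in WT and 1646 to 1821 FPKM in Hemgn-/-, and 10 neutrophil markers to 74805 to 80743 and 48976 to 54187 FPKM. The transcripts of HSPC markers were thus at low levels beside those of the B cell and neutrophil lists in both groups. Such sums depend on the genes listed and do not give the share of a cell type. In bulk RNA, more or fewer cells of a type and more or less RNA per cell cannot be told apart. P-values set the difference between groups against the spread between these 3 libraries of a group. In limma that spread is also drawn from other genes.

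Of the 10 class II genes, 5 rose in Hemgn-/- libraries, 1 fell and 4 did not pass the test at an adjusted p under 0.05. H2-Ea-ps, H2-Eb1, Ciita, H2-Ob and H2-DMa rose, by 1.46 to 3.19 times. H2-DMb1 fell, and the chains of I-A, H2-Aa and H2-Ab1, were at close levels in both groups. Over all genes tested, 4.37% rose and 2.09% fell by the same rule. The median log2 fold change (Hemgn-/- minus WT, of FPKM + 1) was 0.50 over the 10 genes and 0.087 over all genes tested. The thresholds the study's methods give, p under 0.05 and a 1.5-fold change, were applied to the unadjusted p of limma. H2-Ea-ps, H2-Eb1 and Ciita were then higher (3 of 10, against 4.1% of all genes) and 0 were lower (against 2.74%). The study itself reported more genes lower than higher at these thresholds, so these are not its own calls. By unadjusted p alone, 1 of the 10 genes was lower, H2-DMb1, in the fit of limma and also with voom on recovered fragments. All Hemgn-/- values lay above all WT values in 6 of the 10 genes, against 19.2% of all genes tested, and below them in 1 gene, against 8.18%.

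**Figure D1:**
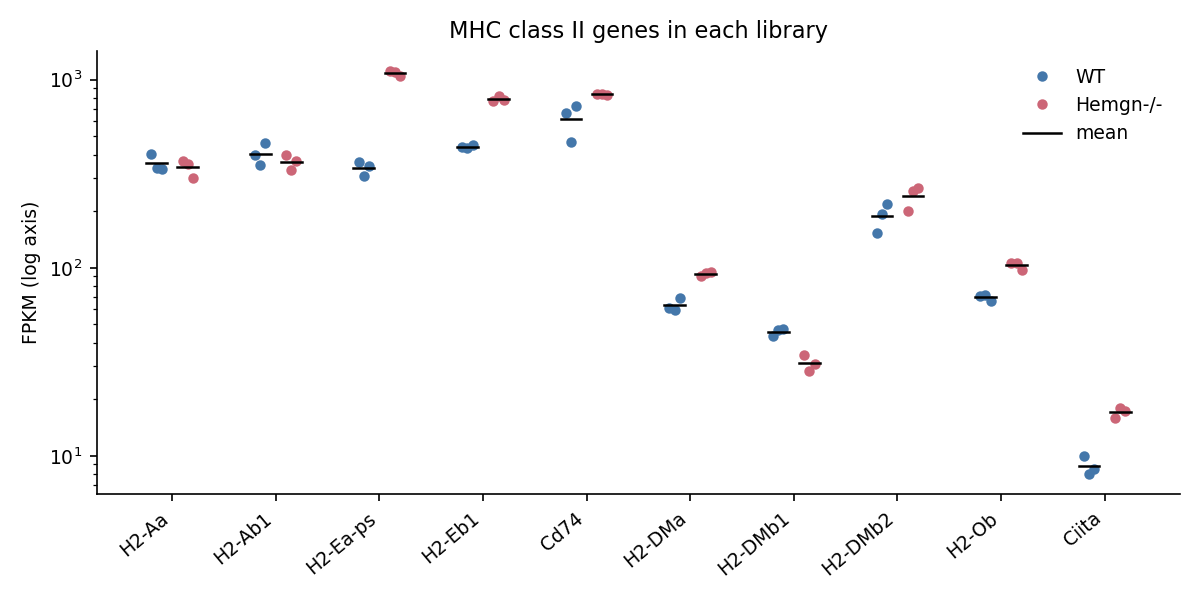
FPKM of the 10 class II genes (log axis) in each library, with WT in blue, Hemgn-/- in red, 1 point per library and a bar at the mean of 3. H2-Ea-ps shows the widest gap (307 to 365 against 1050 to 1113 FPKM), H2-Aa and H2-Ab1 overlap, and H2-DMb1 is lower in Hemgn-/- libraries.

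The chains of I-A, the class II molecule that C57BL/6 cells display, did not separate the groups. H2-Aa, the A alpha chain, was 404, 338 and 334 FPKM in WT replicates 1 to 3 and 369, 354 and 302 FPKM in Hemgn-/- replicates 1 to 3. H2-Ab1, the A beta chain, was 397, 352 and 460 FPKM in WT and 398, 331 and 367 FPKM in Hemgn-/-. For both genes the ranges overlapped. The log2 fold change was -0.07 for H2-Aa (95% interval -0.30 to 0.16, limma adjusted p = 0.731), and its sign turned to 0.02 when libraries were given equal FPKM totals. For H2-Ab1 it was -0.14 (95% interval -0.38 to 0.10, limma adjusted p = 0.504), and it went from -0.23 without WT replicate 2 to -0.04 without WT replicate 3. Neither interval reaches the rise of H2-Ob or H2-DMa below.

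The genes of I-E behaved otherwise. H2-Ea-ps, the E alpha gene, was 365, 307 and 348 FPKM in WT libraries and 1113, 1094 and 1050 FPKM in Hemgn-/- libraries. The lowest Hemgn-/- library thus stood far above the highest WT library. Its mean went from 340 ± 29.7 to 1086 ± 32.5 FPKM (SD, n = 3), a log2 fold change of 1.68 (SE 0.0726, limma adjusted p = 9.8e-06) or 3.19-fold, with 8145 to 9981 fragments per WT library and 29653 to 31654 per Hemgn-/- library. H2-Eb1, the E beta chain, was 439, 433 and 450 FPKM in WT and 768, 821 and 784 FPKM in Hemgn-/-. Its libraries differed little within a group (441 ± 8.81 and 791 ± 27.4 FPKM), and the groups did not overlap. The log2 fold change of H2-Eb1 was 0.84 (SE 0.0545, limma adjusted p = 9.5e-05), a 1.79-fold rise. H2-Eb1 overlaps the antisense gene Gm20513, which was at a mean of 0.468 FPKM.

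Cd74, the invariant chain, whose gene lies outside the class II region (chromosome 18, 60803848 to 60812652, plus strand), was 666, 465 and 725 FPKM in WT and 842, 841 and 825 FPKM in Hemgn-/- libraries. The Hemgn-/- libraries lay close together and above every WT library, while WT replicate 2 stood well below the other two. The log2 fold change was 0.46 (95% interval 0.13 to 0.78), and the adjusted p of limma missed the threshold at 0.104. Leaving out WT replicate 2 gave a log2 fold change of 0.27 with a limma adjusted p of 0.0511.

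Of the peptide editor H2-DM, the alpha chain gene rose, while one beta chain gene fell and the other did not pass the test. H2-DMa was 61.2, 59.8 and 69.3 FPKM in WT and 90.5, 93.7 and 94.5 FPKM in Hemgn-/- libraries, with no overlap. It rose by a log2 fold change of 0.55 (SE 0.0773, limma adjusted p = 0.0052), or 1.46-fold. The gene overlaps Brd2 on the other strand (38.1 FPKM on average), and whether reads were counted by strand is not given in the sources used here. Brd2 was at 33.5 ± 5.11 FPKM in WT and 42.8 ± 1.70 in Hemgn-/- (log2 fold change 0.35, limma adjusted p = 0.104).

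H2-DMb1 was 43.5, 46.7 and 47.2 FPKM in WT and 34.5, 28.3 and 30.6 FPKM in Hemgn-/- libraries. It was the one class II gene of the 10 with every Hemgn-/- library below every WT library. It fell by 0.55 on the log2 scale (SE 0.0915, limma adjusted p = 0.0107). The call was lost without Hemgn-/- replicate 3 (limma adjusted p = 0.0551) and without a trend in the variance (0.0603), with the direction kept in both. H2-DMb2, its neighbour, was 152, 193 and 219 FPKM in WT and 200, 255.7 and 266 FPKM in Hemgn-/-, and the groups overlapped (log2 fold change 0.36, 95% interval 0.02 to 0.69, limma adjusted p = 0.204). Without WT replicate 1, the lowest library, the log2 fold change of H2-DMb2 was 0.21. The beta chain genes are near-copies: 517 of the 1374 words of 31 bases in the longest H2-DMb1 transcript (37.6%) also occur in H2-DMb2, and 72 of its 1255 windows of 150 bases, the read length, are wholly shared. How reads that match both genes were counted is not given. In this respect the values of each are less certain than those of the other 8 genes, none of which had a wholly shared window. The sum of the FPKM of both beta chain genes was 196, 239 and 267 FPKM in WT and 234, 284 and 296 FPKM in Hemgn-/-, with overlapping groups (two-sided exact permutation test, p = 0.3).

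H2-Ob, the H2-O beta chain, was 70.4, 71.7 and 66.3 FPKM in WT and 105.5, 105.5 and 97.5 FPKM in Hemgn-/- libraries. The groups were well apart, and H2-Ob rose by a log2 fold change of 0.56 (SE 0.0700, limma adjusted p = 0.0031), or 1.47-fold. H2-Oa, its partner and not one of the 10 genes, rose from 12.9 ± 1.44 to 18.3 ± 1.33 FPKM (log2 fold change 0.48, limma adjusted p = 0.0370).

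Ciita was 10.0, 8.0 and 8.54 FPKM in WT and 16.0, 17.9 and 17.4 FPKM in Hemgn-/- libraries. It had the lowest level of the 10 genes in both groups, and its groups did not overlap. Ciita rose by a log2 fold change of 0.88 (SE 0.109, limma adjusted p = 0.0029), or 1.84-fold. Part of the gene overlaps Dexi on the other strand, which was at a mean of 1.53 FPKM.

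**Figure D2:**
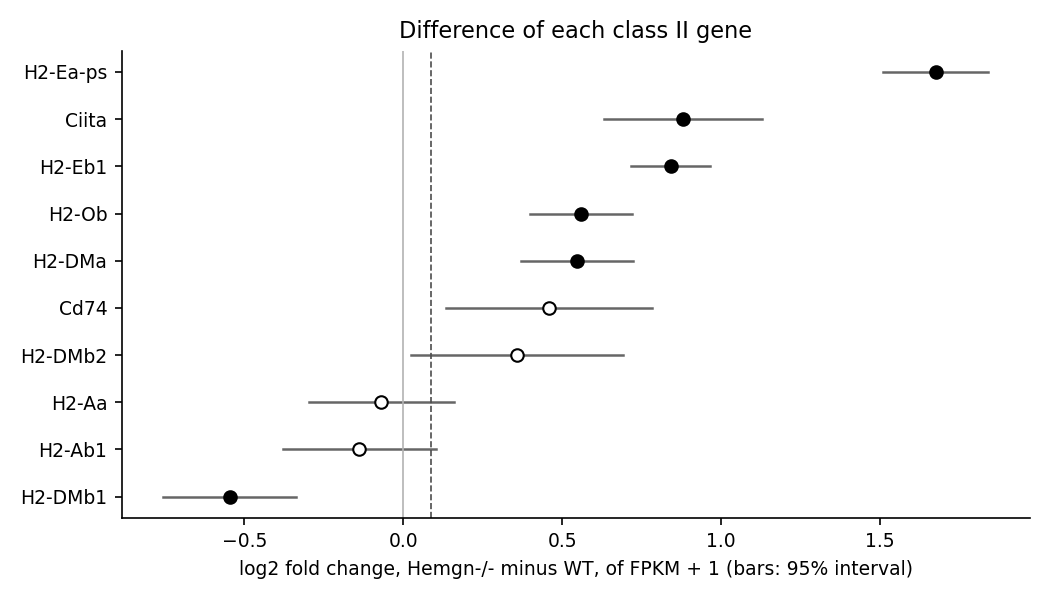
Log2 fold change of FPKM + 1 (Hemgn-/- minus WT) of each class II gene with its 95% interval from limma, filled where the adjusted p was under 0.05. The solid line is 0 and the dashed line is the median of all genes tested (0.087). H2-Ea-ps (1.68) is farthest to the right and H2-DMb1 (-0.55) is the one filled point below 0.

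FPKM was scaled by the summed length of a gene's annotated exons, which can exceed the length of its transcript. That length was 2568 bases for H2-Ab1, whose longest transcript has 1212, and 1036 for H2-Ea-ps, as in its transcript. The order of levels below is therefore one of FPKM and only a rough guide to the order of transcript numbers. In WT libraries the mean FPKM fell in the order Cd74, H2-Eb1, H2-Ab1, H2-Aa, H2-Ea-ps, H2-DMb2, H2-Ob, H2-DMa, H2-DMb1 and Ciita. The ranges of H2-Eb1 and H2-Ab1 overlapped, and so did those of H2-Ab1 and H2-Aa, of H2-Aa and H2-Ea-ps and of H2-Ob and H2-DMa, so that these neighbours were not separated by the replicates. In Hemgn-/- libraries H2-Ea-ps moved from the fifth place to the first, ahead of Cd74 and H2-Eb1, and the other 7 genes followed in the same order as in WT. There, H2-Ab1 and H2-Aa were the one pair of neighbours whose ranges overlapped.

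The genes of one pathway can also be set against each other within a library, where a common change of scale cancels. These 8 ratios were compared with two-sided exact permutation tests, and with 3 libraries against 3 the smallest p possible is 0.1 (0.133 when adjusted over the 8 ratios). H2-Aa over H2-Ab1 was 0.726 to 1.02 in WT and 0.821 to 1.07 in Hemgn-/- libraries, an overlap (exact permutation p = 0.7). H2-Ea-ps over H2-Eb1 was 0.710 to 0.831 in WT and 1.33 to 1.45 in Hemgn-/-. The FPKM of the alpha gene was thus below that of the beta gene in each WT library and above it in each Hemgn-/- library. H2-Ea-ps over H2-Aa was 0.904 to 1.04 and 3.02 to 3.48. H2-Eb1 over H2-Ab1 went from 0.978 to 1.23 up to 1.93 to 2.49.

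Cd74 over the sum of the I-A chains was 0.674 to 0.912 in WT and 1.10 to 1.23 in Hemgn-/-. H2-DMb2 over H2-DMb1 was 3.50 to 4.65 and 5.80 to 9.04, and H2-DMa over both beta chain genes 0.250 to 0.313 and 0.319 to 0.386. In these 6 ratios, from H2-Ea-ps over H2-Eb1 onward, each Hemgn-/- library was above each WT library (p = 0.1 in the exact permutation test, the smallest possible). H2-Ob over H2-Oa was 5.12 to 5.88 and 5.16 to 6.27, with overlap (exact permutation p = 0.6, adjusted p = 0.686).

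**Figure D3:**
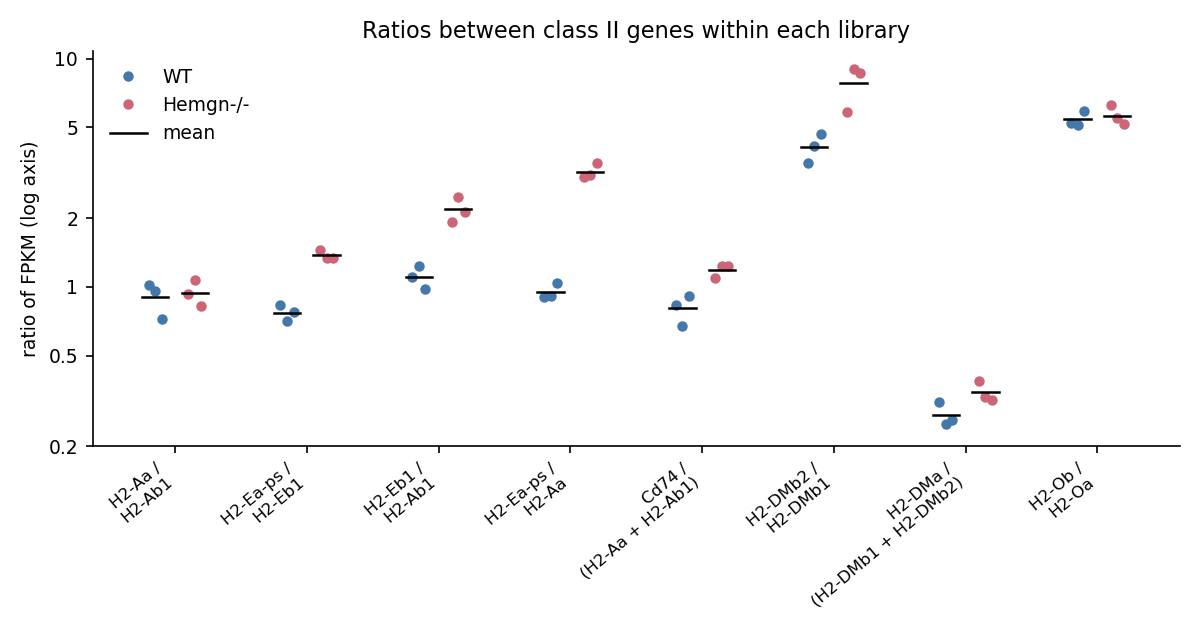
Ratio of FPKM values between class II genes within each library (log axis), with WT in blue, Hemgn-/- in red and a bar at the mean of 3. The ratios H2-Aa to H2-Ab1 and H2-Ob to H2-Oa overlap between groups, while H2-Ea-ps to H2-Aa stands at 0.904 to 1.04 in WT and 3.02 to 3.48 in Hemgn-/-.

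The 8 genes on chromosome 17 share a stretch of 252.306 kb that runs from the start of H2-Oa to the end of H2-Ea-ps and holds 19 genes of the table, of which 17 were tested. In this stretch 6 other genes than H2-DMb1 were higher at an adjusted p under 0.05, and H2-DMb1 was lower. Besides H2-Oa, the higher genes outside the set included Tap1, a subunit of the peptide transporter for class I, at 36.0 ± 0.586 and 54.7 ± 0.941 FPKM (log2 fold change 0.59, limma adjusted p = 0.0023). The 9 tested genes of the stretch outside the set comprised 2 that were higher and 0 that were lower, and their median log2 fold change was 0.34. H2-Eb2, a second E beta gene at low level, was at 3.38 ± 0.695 and 1.98 ± 0.589 FPKM (log2 fold change -0.57, limma adjusted p = 0.139). Neighbours in the stretch therefore did not all rise. The only gene called lower was H2-DMb1, whose values are less certain because of the sequence it shares with H2-DMb2. H2-Ab1 and H2-Aa, which did not pass the test, lay between H2-Ob and H2-Eb1, which rose.

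**Figure D4:**
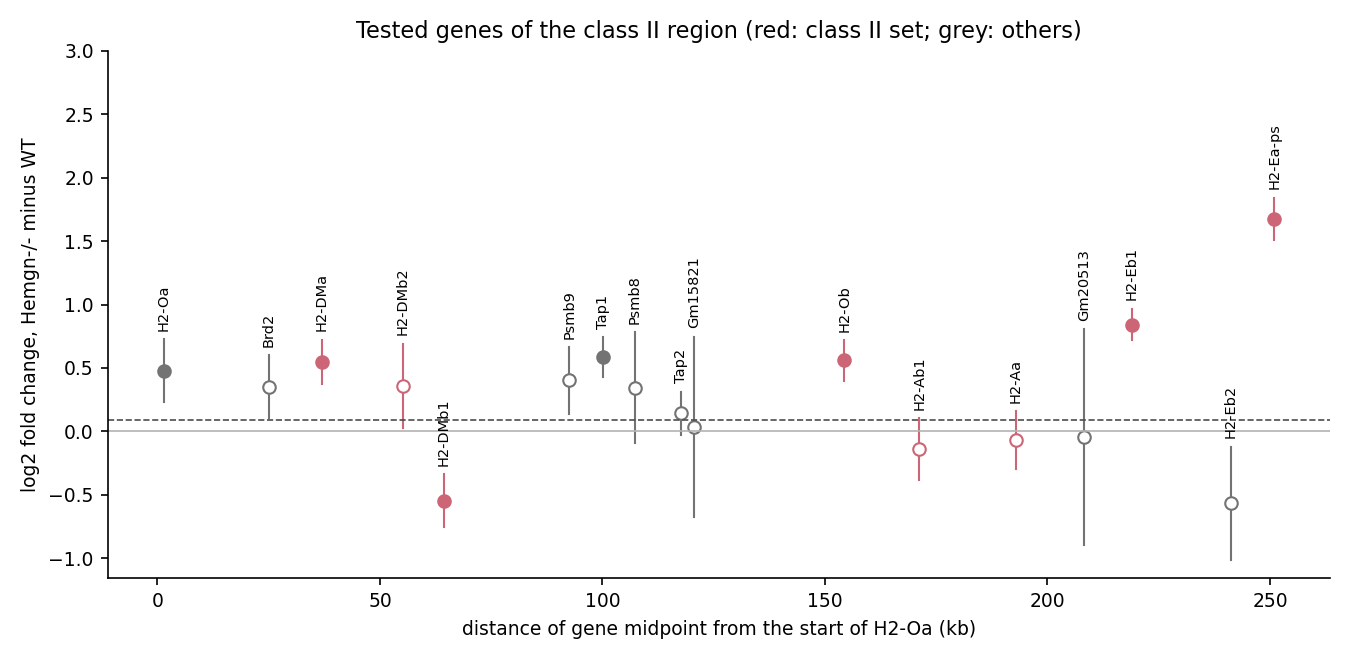
Log2 fold change (Hemgn-/- minus WT, of FPKM + 1) with 95% intervals of the 17 tested genes of the class II stretch, placed by the distance of the gene's midpoint from the start of H2-Oa in kb. Red marks the class II set, grey the other genes, filled symbols an adjusted p under 0.05, and the dashed line the median of all genes. H2-Ob, H2-Ab1, H2-Aa and H2-Eb1 follow each other with values of 0.56, -0.14, -0.07 and 0.84.

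Other genes of the pathway and of the class II region, some of which serve class I presentation or neither (Tap1, Tap2, Psmb8, Psmb9 and Brd2), were taken from 4 lists of 34 genes, of which 32 were tested, 8 were higher and 0 lower by limma at an adjusted p under 0.05. At an unadjusted p under 0.05, 1 was lower, H2-Eb2, and voom likewise called 0 lower. Their median log2 fold change was 0.25, and Rfxap and Nfya were below the filter. Of 10 genes for endosomal processing, 2 were higher, namely Ctss, the cathepsin that trims the invariant chain (79.5 ± 4.66 to 103 ± 3.14 FPKM, log2 fold change 0.36, limma adjusted p = 0.0205), and Sppl2a, the protease that clears its stub (12.5 ± 0.156 to 16.4 ± 0.701 FPKM, 0.36, limma adjusted p = 0.0428). Of 9 tested genes for class II transcription and its induction, Irf1, an interferon-induced transcription factor, rose from 48.9 ± 5.47 to 82.6 ± 5.67 FPKM (0.75, limma adjusted p = 0.0038), and Usf1, a factor of one Ciita promoter, from 11.3 ± 1.13 to 16.0 ± 1.60 FPKM (0.46, limma adjusted p = 0.0486). Rfx5, a subunit of the RFX complex, was at 1.12 ± 0.730 and 0.739 ± 0.0952 FPKM (-0.23, limma adjusted p = 0.651).

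Of 6 genes for surface turnover and Cd74 partners, those that rose have opposite roles. Cd83, which stabilises class II at the surface, went from 21.4 ± 1.66 to 34.4 ± 3.41 FPKM (log2 fold change 0.66, limma adjusted p = 0.0074). March1, the ligase that removes class II from the surface, went from 15.6 ± 1.34 to 23.4 ± 3.46 FPKM (0.55, limma adjusted p = 0.0336). The other 2 genes that rose, of 7 in the list of further genes of the class II region, were H2-Oa and Tap1. The number of genes of these lists that passed the test depended on the scaling, as 3 of them were higher under median-ratio scaling and 14 with equal FPKM totals, while the all-gene split moved from 600 higher and 287 lower to 341 and 386 or to 1062 and 238.

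Markers of cells that carry class II also differed between the groups. Of 10 B cell markers, 6 were higher and 0 lower in Hemgn-/- libraries (among them Cd79b, Ms4a1, Cd22, Blk and Fcer2a). Fcer2a, the low-affinity IgE receptor of mature B cells, was farthest apart at 79.7 ± 5.17 and 158 ± 2.80 FPKM (log2 fold change 0.98, limma adjusted p = 0.00014). Cd79a, Pax5, Vpreb3 and Ebf1 did not pass the test (log2 fold changes 0.22, 0.45, -0.23 and -0.04). Of these, Vpreb3 and Ebf1 are high in B cell precursors. Of 10 plasmacytoid dendritic cell markers, Siglech (4.30 ± 0.537 to 10.8 ± 1.67 FPKM), Spib (145 ± 14.8 to 232 ± 17.8 FPKM), Pacsin1 and Klk1 rose, and the list summed to 310 to 314 FPKM in WT and 390 to 461 in Hemgn-/-. Spib, which is also expressed in B cells, had the highest FPKM of that list in both groups. Bst2 and Ly6d, the next highest, did not pass the test.

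The defining markers of conventional dendritic cells were near 0, with Zbtb46, Xcr1 and Batf3 at group means of 0.118 to 0.291 FPKM and under the filter, and Ccr7, which other cells share, was the 1 of 5 tested markers that rose (69.2 ± 4.25 to 91.4 ± 3.54 FPKM). That list, most of whose FPKM came from Ccr7, summed to 71.2 to 78.5 FPKM in WT and 94.1 to 101 in Hemgn-/-. Of 9 tested macrophage or monocyte markers, Adgre1 and Csf1r were higher and C1qb was lower, with overlapping sums of 625 to 654 and 543 to 649 FPKM. Of 10 T or NK cell markers, Cd3d, Ncr1 and Gzma were higher (sums of 210 to 231 and 245 to 273 FPKM). In the list for innate lymphoid cells of group 2, 0 of 7 tested markers passed the test, Il7r being the most abundant (24.6 ± 3.31 and 18.2 ± 0.783 FPKM, limma adjusted p = 0.0706), and Il5 was listed at 0 in 5 libraries. The sums of that list were 41.5 to 47.2 and 34.5 to 39.0 FPKM.

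Neutrophil and erythroid markers were lower. Of 10 neutrophil markers, 5 were lower in Hemgn-/- libraries (Ngp, Ltf, Camp, Elane and Mpo), and Ngp went from 44876 ± 1761 to 27132 ± 754 FPKM. Of 9 tested erythroid markers, 5 were lower (Hba-a1, Hba-a2, Hbb-bs, Hbb-bt and Alas2), with sums of 493 to 579 FPKM in WT and 61.1 to 80.6 in Hemgn-/-. Of 9 tested HSPC markers, Cd34 was higher (8.08 ± 0.795 and 11.4 ± 0.514 FPKM). The part of these cell types in the class II differences was not tested.

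**Figure D5:**
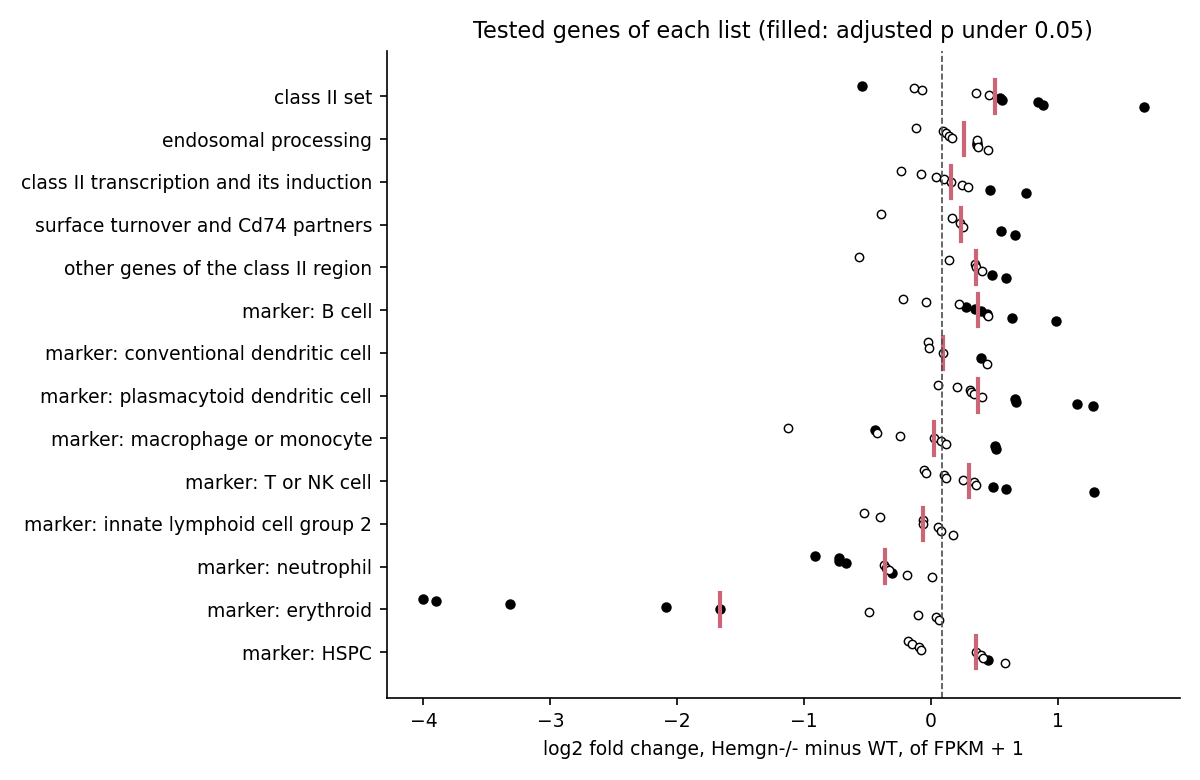
Log2 fold change of every tested gene (1 point each) in the class II set, the 4 lists of the pathway and the 9 marker lists, filled where limma's adjusted p was under 0.05, with a red bar at the list's median and a dashed line at the median of all genes (0.087). The class II set spans -0.55 to 1.68 around a median of 0.50, and the erythroid list lies lowest.

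The class II genes were also set against the B cell markers, a comparison chosen after the values had been seen. The 10 class II genes summed to 2274 to 2729 FPKM in WT and 3833 to 3942 FPKM in Hemgn-/- libraries, and the ratio of the group means was 1.54, against 1.27 for the sum of the 10 B cell markers. Divided by that B cell sum within each library, H2-Ea-ps was 2.52 times as high in Hemgn-/- as in WT, Ciita 1.52 times, H2-Eb1 1.41 times and H2-Ob 1.17 times, with each Hemgn-/- library above each WT library. H2-Aa (0.751 times), H2-Ab1 (0.714 times) and H2-DMb1 (0.536 times) were below WT in each library by the same measure. H2-DMa (1.15 times), Cd74 (1.06 times) and H2-DMb2 (1.00 times) overlapped. For the 7 genes that did not overlap, the two-sided exact permutation test gave p = 0.1, its smallest value, and 0.143 when adjusted over the 10 ratios. That sum was mostly Cd79a and Cd79b (66.9% in WT), and the outcome depended on the marker. Set against each of the 10 B cell markers singly, H2-Ea-ps was higher in each Hemgn-/- library for all 10, H2-Eb1 and Ciita for 9, and H2-Ob for 6. Against Fcer2a, the marker that differed most, H2-Ea-ps was 1.60 times as high in Hemgn-/- as in WT, and H2-Eb1 (0.901 times) and Ciita (0.967 times) overlapped. Lower in each Hemgn-/- library were H2-Ob (0.744 times), H2-DMa (0.734 times), Cd74 (0.672 times) and H2-DMb2 (0.642 times). So were H2-Aa (0.477 times), H2-Ab1 (0.452 times) and H2-DMb1 (0.341 times). H2-DMb1 was lower in each Hemgn-/- library for 9 of the 10 markers, and H2-Aa and H2-Ab1 for 7.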

How the data were processed

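RNA-seq of donor HSPCs was analysed from 3 WT and 3 Hemgn-/- libraries, grouped by the genotype in the sample labels. The authors deposited FPKM values per gene for each library. The submitters' processing notes list Bowtie2 2.2.3, HISAT2 2.1.0, TopHat2, HTSeq 0.6.0 and GRCm38 without their roles, and the annotation is not given in the sources used here. Columns of each group were matched to labels by genotype and number, and 0 columns were left unmapped. Of 24965 genes, 24921 matched GENCODE M21. Depth was recovered from the steps of low FPKM values, since 95.4% of 13472 genes with at most 100 fragments came out whole (within 0.02) in all libraries, and 1 fragment on a 1 kb gene is worth 0.0346 to 0.0423 FPKM. Replicates differed by a chi-square per gene of at least 17.5, so none was a copy of another.

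The 13739 genes that exceeded 1 FPKM in 1 or more libraries were compared as log2(FPKM + 1) with limma 3.58.1 in R 4.3.3 (eBayes with a trend, all 6 libraries, two-sided, Benjamini-Hochberg over all genes tested), after the method was tested on simulated data. Fold changes on this scale understate those of low genes. The methods of the study name no test for the RNA-seq genes in particular, and Student's test for comparisons of 2 groups in general. Ratios were compared by exact permutation in scipy 1.17.1 under Python 3.11.15. Named are the 10 genes, the genes of the pathway and marker lists at an adjusted p under 0.05 (otherwise the most abundant), markers near 0, the 5 genes most like the set, and Hemgn. Rfx5, Brd2, H2-Eb2, Cd79a, Pax5, Vpreb3 and Ebf1 were added after their values were seen. Some genes of the lists entered the counts and are not reported here by name. The class II genes, lists and tests were chosen with earlier results of these data known. Alternatives were a pseudocount of 0.1, other filters, scaling by median ratios or to equal FPKM totals, quantile normalization, no trend, voom on recovered fragments, the replicate number as a block, and leaving out each library.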

Additional observations from a re-analysis of the deposited data

How the results depend on the processing

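H2-Ea-ps, H2-Eb1, Ciita, H2-DMa and H2-Ob stayed higher at an adjusted p under 0.05 under all 15 alternatives, with log2 fold changes of 1.57 to 1.76, 0.74 to 0.93, 0.78 to 0.96, 0.44 to 0.63 and 0.46 to 0.65. H2-Aa, which was not called, turned to 0.019 with equal FPKM totals, ranged from -0.13 to 0.019 when 1 library was left out (0.019 when that was WT replicate 1 and 0.018 when it was Hemgn-/- replicate 3) and reached -0.17 at its lowest. The count of class II genes lower in Hemgn-/- went from 1 to 0 without a trend in the variance, where H2-DMb1 still had an unadjusted p under 0.05, and was 0 to 1 when 1 library was left out. Cd74 passed the test with equal FPKM totals (adjusted p = 0.0441) and with voom on recovered fragments (0.0393), over a range of 0.0393 to 0.289. The median over the 10 genes was 0.40 under median-ratio scaling and 0.59 with equal totals, which moved the median of all genes to 0.0068 and 0.157. The number of pathway genes higher, 8, became 5 over all genes with FPKM above 0, 3 under median-ratio scaling, 14 with equal totals, 4 after quantile normalization, 3 without a trend and 3 to 9 when 1 library was left out. With the replicate number as a block, 4 pathway genes were higher, 636 genes passed the test in place of 887, and H2-DMb2 joined the class II genes that were higher (adjusted p = 0.0334, against 0.0334 to 0.442 over its alternatives). No pairing by number was seen, as same-numbered libraries deviated from their group means with correlations of -0.043, -0.0094 and 0.011. With so few libraries this cannot exclude that same-numbered libraries were handled together. All p-values are from limma. The cause of these changes was not tested. Over all genes, 887 calls became 390 without a trend, 466 over all genes with FPKM above 0, 1300 with equal totals and 373 to 688 when 1 library was left out. Amplified cDNA fragments are not independent molecules, and 3 libraries a group limit the precision.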

Other observations

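The genes with the pattern most like the class II set were sought among 6280 genes with a mean of at least 5 FPKM, by Pearson's r over the 6 libraries with the mean standardised log2(FPKM + 1) of the 10 genes. These values describe 6 libraries that share their groups, so that any gene that separates the groups scores high, and no p is given. The 5 highest were Prkaa1, a catalytic subunit of AMPK (r = 0.997), Chmp1a, an ESCRT-III protein (0.997), F2rl2, a receptor of the thrombin receptor family (0.995), Spidr, a scaffold protein of DNA repair (0.995), and Dkc1, the dyskerin pseudouridine synthase (0.995). F2rl2 averaged 3.09 ± 0.846 FPKM in WT libraries and 7.70 ± 0.288 in Hemgn-/- libraries. Prkaa1 was at 18.8 ± 1.43 and 22.9 ± 0.425 FPKM.

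Each of the 10 genes was set in the same way against the mean of the others, which again scores high any gene that separates the groups. The r was 0.938 for H2-DMa, 0.925 for H2-Ea-ps, 0.906 for Cd74, 0.898 for H2-Eb1, 0.888 for Ciita, 0.831 for H2-Ob and 0.442 for H2-DMb2. It was -0.316 for H2-Aa, -0.319 for H2-Ab1 and -0.904 for H2-DMb1.

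H2-Ea-ps is worth a closer look for its level as well as its difference. The C57BL/6 haplotype is known for a deletion that removes the promoter of the E alpha gene. Yet the gene was at 307 to 365 FPKM in WT libraries and at 1050 to 1113 FPKM in Hemgn-/- libraries. In WT this was close to the FPKM of H2-Aa, which is scaled by a longer exon length (3798 bases against 1036). Its longest transcript shared none of its words of 31 bases with another gene (0 of 1006). Values per gene do not show where in the gene the reads fell, and the MHC haplotype of donors and recipients was not tested.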
